A study of Mus musculus with 4 samples.

Results

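A set of genes of the chitinase family and of alternative macrophage activation were followed in the lung transcriptome of mice given amiodarone, an anti-arrhythmic drug that injures the lung, and dabigatran, a thrombin inhibitor. The set holds 6 genes, Chil1, Chil3, Chil4, Chia1, Retnla and Arg1, all of them listed in the deposited table of 17780 genes. They were picked by symbol, and the set was chosen on the high level of Chil3 in the amiodarone library. The values of amiodarone against vehicle are therefore given as a description. Those of the other pairs are too, since the set was chosen with earlier results of these data known. Male mice (C57BL/6 in the labels, C57BL/6J in the methods) received vehicle, amiodarone, dabigatran or amiodarone + dabigatran by mouth on weekdays, and no group carried a genetic change. The vehicle was carboxymethylcellulose, in which both drugs were suspended. The labels give 28 days of treatment, and the methods put lung collection slightly earlier. Each of the 4 groups is represented by 1 library of poly(A)+ RNA, so a difference between libraries has no replicate check, and whether a library came from 1 animal is not given in the sources used here.

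Levels are given in FPKM, the number of fragments for each kilobase of a transcript after scaling for library depth, which allows genes of different length to be compared. A ratio is that of FPKM in the first library to FPKM in the second. Its 95% interval is an exact Clopper-Pearson interval from the estimated reads of those libraries, and it covers counting error only, not the difference between animals. The estimated reads summed to between 17498486 and 18903401 per library. Transcripts of the labelled tissue were abundant in all 4 libraries, with Sftpc, the alveolar type 2 surfactant protein, between 19587 and 20385 FPKM.

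Chitinases cleave chitin, the polymer of fungal walls, insects and mites. The chitinase-like proteins share their fold and bind sugar polymers without cleaving them. Chia1 encodes the acidic mammalian chitinase, an active enzyme of lung and stomach. Chil1 encodes BRP-39, the mouse form of YKL-40, and Chil3 and Chil4 encode the closely related lectins Ym1 and Ym2. Retnla encodes the secreted protein RELM-alpha, and Arg1 encodes arginase 1, which splits arginine into ornithine and urea. In mouse macrophages Chil3, Retnla and Arg1 are commonly used as markers of alternative activation, the state induced by interleukin-4 and interleukin-13 through the transcription factor STAT6. Ym1 is also made by resting alveolar macrophages and by cells of the neutrophil lineage, and Chil1, Chia1 and Retnla are also made by lung epithelium.

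Chia1, Chil3 and Chil4 lie within 106098 bases of chromosome 3 in GRCm38.p6. Chia1 is on the plus strand (chr3:106113382-106132118). Chil3 (chr3:106147554-106167564) and Chil4 (chr3:106201491-106219479) are on the minus strand, with 33926 bases between them. Chil1 lies on the plus strand at chr1:134182156-134190031, Retnla on the plus strand at chr16:48842609-48844461, and Arg1 on the minus strand at chr10:24915207-24927470. Over the aligned coding bases of the GENCODE transcripts, Chil3 and Chil4 were 95.4% identical (1139 of 1194 bases), with a longest identical run of 136 bases. Chil3 and Chia1 were 76.9% identical, and Chil3 and Chil1 60.2%. Of all stretches of 100 bases in the Chil3 transcript, 5.42% also occur in a transcript of another gene (Chil4 or Gm6522), and for stretches of 50 bases the share was 29.4%. Chil1, Chia1, Retnla and Arg1 shared no such stretch with another gene. The first 120 coding bases of Chil3 and Chil4 show how alike the pair is, with the 3 bases that differ in capitals:
Chil3: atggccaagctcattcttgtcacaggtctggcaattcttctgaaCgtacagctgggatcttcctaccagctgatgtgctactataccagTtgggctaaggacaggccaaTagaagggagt
Chil4: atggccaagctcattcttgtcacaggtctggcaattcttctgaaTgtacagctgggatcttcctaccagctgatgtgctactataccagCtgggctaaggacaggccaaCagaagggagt

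Reads from the stretches that Chil3 and Chil4 share had to be divided between them by the estimation. This matters most for Chil4, which had few reads. Of the stretches in the Chil4 transcript, 3.75% at 100 bases and 20.4% at 50 bases also occur in another gene. Most stretches of either transcript therefore occur in no other gene. RefSeq promoters were found for 5 of the 6 genes. The 250 bases upstream of the annotated start were searched on both strands for TTCNNNNGAA, a spacing bound by STAT6, and for TTGCNNAA, a C/EBP-type motif. These occur in 5.85% and 9.56% of 32851 promoters of the same length. TTC and GAA at other distances were not searched for. Retnla held TTCNNNNGAA at position -145 and TTGCNNAA at -134 from the annotated start, without overlap. Chil4 held TTGCNNAA at -131, read on the opposite strand. Neither motif was in the Chil1, Chil3 or Chia1 window. A match is a description of the letters and not a bound site. The bases just after the annotated start were found in a GENCODE transcript for Chil3 and Chil4 and not for Retnla, Chil1 or Chia1. Positions in the latter genes rest on the annotated start alone. The promoters of the genes with a match, and that of Chil3 beside its near copy, are shown 5′ to 3′ on the strand of the gene, with matches in capitals, at chr16:48842359-48842608 (plus strand), chr3:106167565-106167814 (minus strand) and chr3:106219480-106219729 (minus strand) of GRCm38.p6:
Retnla: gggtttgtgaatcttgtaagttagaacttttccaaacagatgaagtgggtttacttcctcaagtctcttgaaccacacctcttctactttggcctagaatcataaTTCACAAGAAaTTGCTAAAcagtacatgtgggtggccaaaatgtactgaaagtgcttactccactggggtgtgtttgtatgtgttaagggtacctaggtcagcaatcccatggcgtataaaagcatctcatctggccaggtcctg
Chil3: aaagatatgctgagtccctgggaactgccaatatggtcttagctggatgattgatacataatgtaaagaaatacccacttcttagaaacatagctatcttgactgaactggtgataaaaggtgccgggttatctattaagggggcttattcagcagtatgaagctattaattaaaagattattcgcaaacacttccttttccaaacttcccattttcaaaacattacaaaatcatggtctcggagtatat
Chil4: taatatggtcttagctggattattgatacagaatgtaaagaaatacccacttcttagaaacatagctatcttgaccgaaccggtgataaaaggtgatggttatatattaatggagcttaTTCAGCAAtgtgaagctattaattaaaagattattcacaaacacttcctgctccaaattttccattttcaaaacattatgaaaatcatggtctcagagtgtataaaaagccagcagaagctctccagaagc

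Chil3 was high in both libraries with amiodarone and low in both without it. Its level was 90.3 FPKM with vehicle, 731 FPKM with amiodarone, 113 FPKM with dabigatran and 940 FPKM with amiodarone + dabigatran, from 2345, 20330, 2987 and 26407 reads. Ranked by FPKM among all genes, Chil3 went from place 774 with vehicle to place 60 with amiodarone, and from place 588 with dabigatran to place 39 with the combination. Amiodarone to vehicle, the contrast on which the set was chosen, gave a ratio of 8.10 (7.76 to 8.46). Whether such a ratio reflects more cells that make Chil3 or more Chil3 RNA per cell cannot be told apart in whole lung, for this gene or any other here. The ratio of the combination to dabigatran was 8.29 (7.98 to 8.61). Earlier results of these data were known when the set was chosen, so this ratio is a description as well. The difference was 3.0 in the first pair and 3.04 in the second on the log2(FPKM + 1) scale, which ranked 6 and 4 among all rises. Dividing the second ratio by the first gave 1.02 (counting interval by a normal approximation on the log scale, 0.967 to 1.08). Chil3 was not lower with dabigatran added: the ratio of the combination to amiodarone was 1.29 (1.26 to 1.31), and that of dabigatran to vehicle was 1.26 (1.19 to 1.33).

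**Figure D1:**
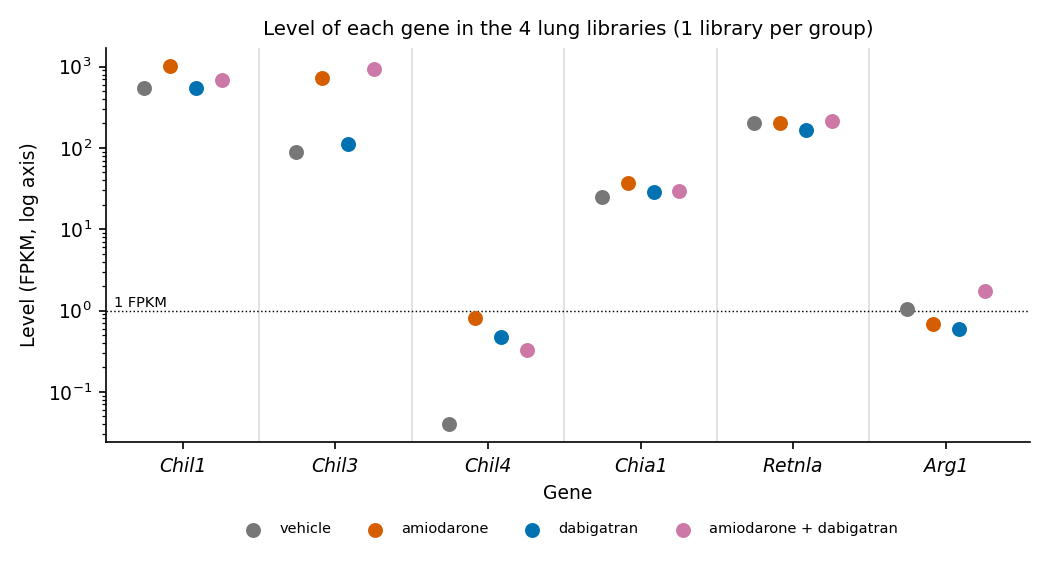
Level in FPKM (log axis) of the 6 genes in the vehicle, amiodarone, dabigatran and amiodarone + dabigatran libraries, 1 point per library and no error bar because each group has 1 library. Chil3 stands at 731 and 940 FPKM in the libraries with amiodarone against 90.3 and 113 FPKM in the others, Retnla stays between 168 and 213 FPKM, and Chil4 lies under 1 FPKM throughout.

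Chil4, the near copy of Chil3, was barely detected. It had 0.04 FPKM with vehicle, 0.81 FPKM with amiodarone, 0.47 FPKM with dabigatran and 0.33 FPKM with the combination, from 1, 22, 12 and 9 reads. The value was lowest in the vehicle library and highest in the amiodarone library. Its ratio between amiodarone and vehicle was 20.2 with an interval from 3.27 to 836, since it rests on 1 read with vehicle, and the ratio of the combination to dabigatran was 0.702 (0.261 to 1.82). Chil4 took between 0.0341% and 0.400% of the reads assigned to Chil3 and Chil4 together. Whether some of these reads came from Chil3 was not tested.

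Chil1 had the highest FPKM of the set in every library except the combination, where Chil3 was above it. Its level was 542 FPKM with vehicle, 1028 FPKM with amiodarone, 554 FPKM with dabigatran and 687 FPKM with the combination. The amiodarone library was highest, the combination lay between it and the others, and vehicle and dabigatran were close. Between amiodarone and vehicle the ratio was 1.90 (1.86 to 1.93), and between dabigatran and vehicle 1.02 (1.0 to 1.04). Where Chil3 was higher, Chil1 was lower in the combination than with amiodarone, with a ratio of 0.668 (0.657 to 0.680). The combination kept 37.0% of the log2 difference of Chil1 between amiodarone and vehicle, against 112% for Chil3. The ratio of the combination to dabigatran was 1.24 (1.21 to 1.27), which was 0.654 times (0.636 to 0.672) the ratio of amiodarone to vehicle. In FPKM, Chil3 stood at 0.167 of Chil1 with vehicle and 0.711 with amiodarone, and at 0.205 with dabigatran and 1.37 with the combination.

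Chia1, the active chitinase, followed the order of Chil1 in a smaller range. It had 24.7 FPKM with vehicle, 36.6 FPKM with amiodarone, 28.6 FPKM with dabigatran and 29.5 FPKM with the combination, from 637, 1010, 747 and 822 reads. Amiodarone was the highest and vehicle the lowest, and the libraries with dabigatran lay close together. The ratio of amiodarone to vehicle was 1.48 (1.34 to 1.64), and that of the combination to amiodarone was 0.806 (0.734 to 0.884). The ratio of the combination to dabigatran was 1.03 (0.933 to 1.14), which lies within counting error.

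Retnla was abundant and nearly level across the libraries. It had 204 FPKM with vehicle, 204 FPKM with amiodarone, 168 FPKM with dabigatran and 213 FPKM with the combination, from 1926, 2070, 1606 and 2179 reads. The dabigatran library was the lowest. With amiodarone the ratio to vehicle was 1.0 (0.943 to 1.07), so a difference of the size of Chil3 was outside the counting interval. The ratio of the combination to amiodarone was 1.04 (0.980 to 1.11), that of dabigatran to vehicle 0.824 (0.770 to 0.880), and that of the combination to dabigatran 1.27 (1.19 to 1.35). The Retnla promoter with its TTCNNNNGAA and the Chil3 promoter without that spacing thus belong to genes with unlike values in these libraries. Other spacings of TTC and GAA were not searched for, and whether the motif bears on either gene was not tested.

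Arg1 was near the limit of detection. It had 1.04 FPKM with vehicle, 0.68 FPKM with amiodarone, 0.59 FPKM with dabigatran and 1.75 FPKM with the combination, from 26, 18, 15 and 47 reads. The combination was the highest, and the other libraries lay close together. For amiodarone and vehicle the ratio was 0.654 (0.338 to 1.24), which lies within counting error. The combination was higher than amiodarone at a ratio of 2.57 (1.47 to 4.71), higher than dabigatran at 2.97 (1.63 to 5.71), and higher than vehicle at 1.68 (1.02 to 2.83).

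**Figure D2:**
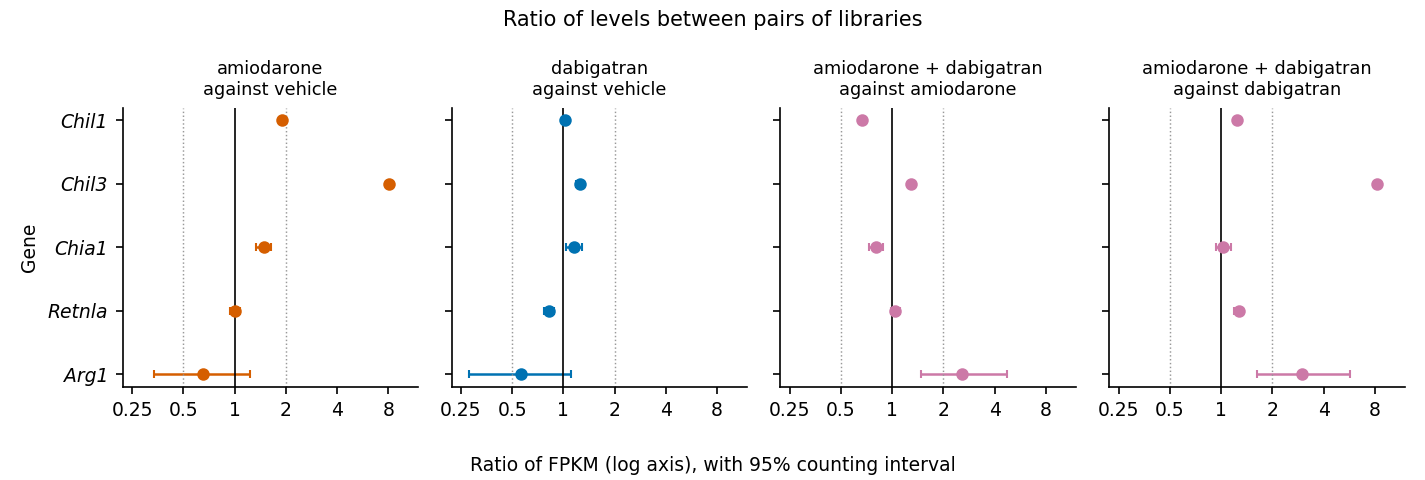
Ratio of FPKM (log axis) for Chil1, Chil3, Chia1, Retnla and Arg1 in 4 pairs of libraries, with 95% counting intervals as bars (some shorter than the point) and dotted lines at 0.5 and 2. Chil3 lies near 8 in both pairs that differ by amiodarone (8.10 and 8.29), Chil1 lies below 1 between the combination and amiodarone (0.668), and the wide bars of Arg1 reflect its 15 to 47 reads. Chil4 is left out because its vehicle value is 1 read.

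Across all genes, a gene counted as changed when it differed at least 2-fold on the log2(FPKM + 1) scale and reached 1 FPKM in either library. Of the 6 genes, 5 reached 1 FPKM in each comparison, and Chil4 did not. Between amiodarone and vehicle, 1 of the 6 genes (Chil3) was at least 2-fold higher and 0 were lower, where 1.87% of 13402 genes were higher and 0.545% were lower. Nothing is read from that count, because it is the contrast that chose the set. Between the combination and dabigatran, 1 of the 6 genes (Chil3) was higher and 0 were lower, where 1.15% of 13379 genes were higher and 0.434% were lower. This count is also only a description, because the members were chosen with earlier results of these data known. Between dabigatran and vehicle, 0 of the 6 genes passed in either direction, where 0.0897% of 13373 genes were higher and 0.0673% were lower. Between the combination and amiodarone, 0 of the 6 genes passed in either direction, where 0.189% of 13261 genes were higher and 0.287% were lower. Over the 5 genes that reached 1 FPKM, the median log2 difference was 0.34 between the combination and dabigatran, beside -0.01 over all genes tested. Between the combination and amiodarone it was 0.06, beside 0.03. With Chil4 included, the medians of the set were 0.33 and -0.12. The comparisons with vehicle share the vehicle library, and each library with a drug also enters more than 1 comparison.

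**Figure D3:**
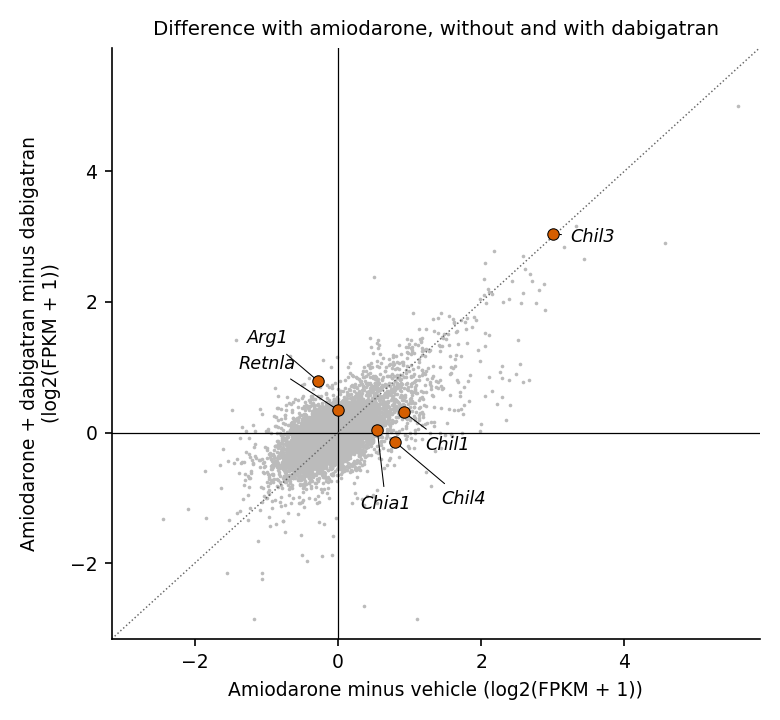
Difference on the log2(FPKM + 1) scale between amiodarone and vehicle (horizontal axis) and between amiodarone + dabigatran and dabigatran (vertical axis) for the 13536 genes that reached 1 FPKM in 1 or more libraries (grey), with the 6 genes in orange, Chil4 included, and a dotted line of equal differences. Chil3 lies on that line at 3.0 and 3.04, whereas Chil1 lies under it at 0.92 and 0.31 and Arg1 above it at -0.28 and 0.79.

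The wider chitinase family was low in these lungs apart from the genes above. Of 10 listed genes all are in the table, and 5 reached 1 FPKM in the amiodarone and vehicle libraries. Ctbs, which degrades chitobiose in lysosomes, had 6.11 FPKM with amiodarone against 5.39 FPKM with vehicle. Chid1, a chitinase-domain protein, had between 6.41 and 9.60 FPKM. Chit1, the other active mouse chitinase, had 0 reads with vehicle, which allows up to 3, and 1 or 2 reads in the other libraries. Chil6 had 0 to 2 reads and Chil5 6 to 12 reads per library. Of the genes of this family outside the set, 2 (Ctbs and Chid1) reached 1 FPKM, and neither was 2-fold higher or lower in the 4 comparisons.

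Among the resistin-like genes, the paralog Retnlg was at least 2-fold higher in both pairs that differ by amiodarone, and Retnla in neither. Retnlg, which encodes the resistin-like protein found in neutrophils, had 9.24 FPKM with vehicle, 110 FPKM with amiodarone, 9.22 FPKM with dabigatran and 63.5 FPKM with the combination. The ratio of amiodarone to vehicle was 11.9 (9.55 to 14.9), and those of the combination were 0.579 (0.526 to 0.638) to amiodarone and 6.88 (5.52 to 8.68) to dabigatran. Retn, the resistin gene itself, had 6.86 FPKM with vehicle and with amiodarone 3.15 FPKM, from 63 and 31 reads, which did not pass. Retnlb is not analysed here.

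In arginine metabolism the mitochondrial arginase Arg2 was higher in both pairs that differ by amiodarone. Arg2 had 3.35 FPKM with vehicle, 12.5 FPKM with amiodarone, 3.43 FPKM with dabigatran and 8.67 FPKM with the combination. The ratio of amiodarone to vehicle was 3.72 (2.90 to 4.81), and that of the combination to amiodarone was 0.696 (0.584 to 0.828). Of the 11 genes of this list, Arg2 alone was at least 2-fold higher on the log2(FPKM + 1) scale between amiodarone and vehicle and between the combination and dabigatran, and none was lower. In the second of these pairs the ratio of Arg2 was 2.53 (1.96 to 3.29), and Arg1, with its ratio of 2.97, had a difference of 0.79 on that scale. Ass1, which makes the precursor of arginine, had 35.4 FPKM with amiodarone against 25.1 FPKM with vehicle. Nos2, the inducible nitric oxide synthase that competes with arginase for arginine, was at 1.05 against 1.68 FPKM, and Sms, spermine synthase, at 8.04 against 10.7 FPKM. The median of the list between amiodarone and vehicle was -0.09 on the log2(FPKM + 1) scale, beside -0.05 over all genes tested.

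Of the type 2 cytokines, Il13, an inducer of alternative activation, and Il5, an eosinophil growth factor, had few or no reads, and Il4 is not analysed here. Of 17 listed genes, 14 are in the table, and 9 reached 1 FPKM between amiodarone and vehicle. Of the genes that reached 1 FPKM, 9 in each of the 4 comparisons, none was 2-fold higher or lower on the log2(FPKM + 1) scale. Il5ra, the interleukin-5 receptor chain, lay under that level, with 22 reads with vehicle and 6 reads with amiodarone, a ratio of 0.25 (0.0829 to 0.636). Il13 had 0 reads with vehicle and with dabigatran, 3 reads with amiodarone and 1 with the combination. Il5 had between 3 and 6 reads in every library. Il4ra, the receptor chain shared by interleukin-4 and interleukin-13, had 36.0 FPKM with vehicle, 62.9 FPKM with amiodarone, 38.4 FPKM with dabigatran and 49.8 FPKM with the combination. The epithelial alarmin Il33 gave 28.2, 39.6, 23.8 and 33.5 FPKM in that order. Stat6 stayed between 42.0 and 45.8 FPKM.

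Other genes used as markers of alternative activation did not all go one way. Of 21 listed genes, 17 reached 1 FPKM between amiodarone and vehicle, of which 3 were at least 2-fold higher and 1 was lower. Mmp12, macrophage elastase, had 1.92 FPKM with vehicle, 9.46 FPKM with amiodarone, 3.10 FPKM with dabigatran and 6.58 FPKM with the combination. Clec7a, the beta-glucan receptor Dectin-1, gave 14.0, 29.8, 15.8 and 40.7 FPKM in that order of libraries, and its value, like that of Chil3, was not lower with dabigatran added. The chemokine Ccl17 had 10.3, 21.8, 8.29 and 15.8 FPKM, with a log2 difference of 1.01 that barely passed. Cd209a, a lectin of dendritic cells, was the gene that was lower, at 0.93 FPKM with amiodarone against 3.68 FPKM with vehicle. The mannose receptor Mrc1 was at 12.2 against 6.50 FPKM and the lectin Clec10a at 1.79 against 3.65 FPKM, and neither passed. The median of the list was 0.20, beside -0.05 over all genes tested.

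**Figure D4:**
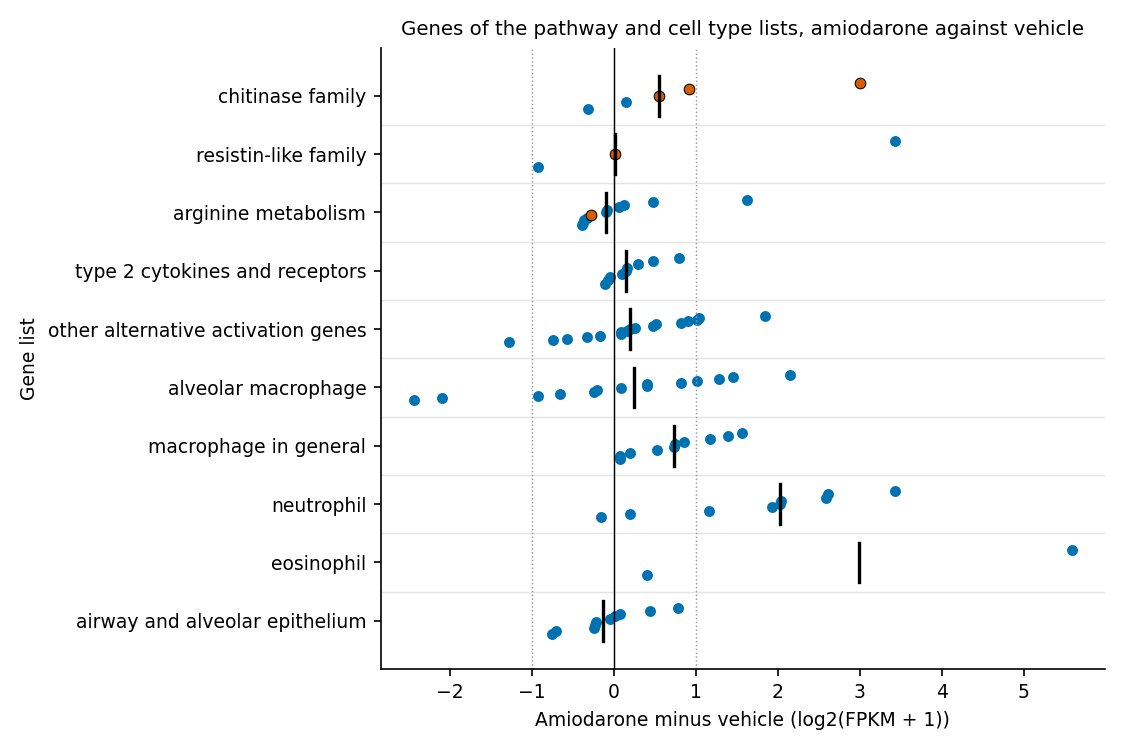
Difference between amiodarone and vehicle on the log2(FPKM + 1) scale for genes reaching 1 FPKM in the amiodarone or the vehicle library, by gene list, with 1 point per gene, genes of the set in orange, the list median as a black bar and dotted lines at a 2-fold difference. The neutrophil list has a median of 2.03 and the macrophage list of 0.74, while the type 2 cytokine list has no gene past a dotted line.

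Markers of the cells that make these proteins also differed between the libraries. All 10 macrophage markers were higher with amiodarone than with vehicle in value and 3 were at least 2-fold higher, and their summed level was 3514 FPKM with vehicle, 5102 FPKM with amiodarone, 3813 FPKM with dabigatran and 4821 FPKM with the combination. Most of that sum is Lyz2, lysozyme, at 3396, 4907, 3693 and 4618 FPKM in the same order, so the sum mainly follows that 1 gene. Cd68, a lysosomal macrophage protein, had 28.6, 77.2, 25.8 and 89.2 FPKM in that order, and the ratio of Chil3 to Cd68 in FPKM was 3.16, 9.48, 4.40 and 10.5. Between amiodarone and vehicle the highest ratio among these 10 markers was that of the Fc receptor gene Fcgr1 at 4.37 (3.32 to 5.84). The lowest were Csf1r at 1.05 (0.997 to 1.11) and Aif1 at 1.06 (0.719 to 1.57), both within counting error. Between the combination and amiodarone, 4 of the 10 were higher in value, 6 were lower and 0 passed, with a median log2 difference of -0.06.

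The 14 alveolar macrophage markers split by direction. Their summed level ran from 340 FPKM with vehicle to 454 FPKM with the combination, with 439 FPKM with amiodarone and 373 FPKM with dabigatran. A large part of that sum is Car4, at 146 FPKM with vehicle, 194 FPKM with amiodarone, 174 FPKM with dabigatran and 153 FPKM with the combination. Between amiodarone and vehicle, 4 were at least 2-fold higher and 2 were lower. Atp6v0d2, a proton pump subunit, went from 7.44 to 36.5 FPKM and Plet1 from 28.7 to 80.1 FPKM, whereas Ear1, an eosinophil-associated ribonuclease, went from 22.3 to 4.48 FPKM and the fatty acid binding protein gene Fabp1 from 5.79 to 0.25 FPKM. Between the combination and amiodarone, 12 of the 14 were higher in value, 3 were at least 2-fold higher and 0 were 2-fold lower. The median was 0.31 on the log2(FPKM + 1) scale. Marco, a scavenger receptor, had 12.2 FPKM with the combination and 4.39 FPKM with amiodarone. Ear1 has close copies, so its reads may be divided among them.

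Of 10 neutrophil markers, 7 were at least 2-fold higher with amiodarone than with vehicle. Of the rest, Ngp had 22 reads with vehicle and 19 with amiodarone, Camp 2 and 3, and Ltf 1150 and 1420. The summed level of all 10 was 117 FPKM with vehicle, 626 FPKM with amiodarone, 103 FPKM with dabigatran and 448 FPKM with the combination. Between the combination and amiodarone 8 of the 9 that reached 1 FPKM were lower in value and 0 passed. S100a9, a calcium-binding protein of neutrophils, had 45, 276, 31.2 and 207 FPKM. Of the eosinophil markers in the table, Prg2 had 0 to 2 reads and Ccr3 0 to 3 reads per library. Ear6, a further ribonuclease of that list with close copies, had 786 reads with amiodarone and 385 reads with the combination, against 4 with vehicle and 0 with dabigatran. Of the 11 epithelial markers, 10 reached 1 FPKM between amiodarone and vehicle, and none was 2-fold higher or lower in that pair. In value 4 of them were higher with amiodarone and 6 were lower, with a median of -0.13 on the log2(FPKM + 1) scale. The surfactant protein gene Sftpd had 481, 828, 477 and 594 FPKM with vehicle, amiodarone, dabigatran and the combination, highest with amiodarone. Scgb1a1, a secretoglobin gene, was lowest with amiodarone, with 124168, 73994, 99032 and 97786 FPKM in that order. The part of any of these cell types in the values of the 6 genes was not tested.

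The genes nearest to Chil3 in pattern were sought by the Euclidean distance between their 3 log2(FPKM + 1) differences from vehicle, among 7419 genes with at least 10 FPKM in 1 library. This likeness rests on 4 libraries. Gpnmb, a membrane glycoprotein of macrophages, was nearest at a distance of 0.29, with 3.38 FPKM with vehicle, 37.9 FPKM with amiodarone, 4.30 FPKM with dabigatran and 37.0 FPKM with the combination. The chemokine receptor gene Cxcr1 followed at 0.41, then Retnlg at 0.89, the chemokine gene Ccl6 at 1.0 and Wfdc17 at 1.01. Cxcr1 had 0.370 FPKM with vehicle, and the scale understates the change of low genes, Cxcr1 and Arg1 among them. Cxcr1 and Ccl6 were, like Chil3, higher in the combination than with amiodarone, at 15.6 against 12.7 FPKM and 330 against 302 FPKM. Nearest to Chil1 were Parp9 and Lgals9 at 0.09 and Lyve1 at 0.10, and nearest to Chia1 were Ace and Vegfc at 0.03 and Hyal2 at 0.04. Nearest to Retnla were Cln6 at 0.02 and Acot13 and Hint1 at 0.05, and nearest to Arg1, at larger distances, were Hvcn1 at 0.18, Nkain4 at 0.26 and Pou2af1 at 0.28.

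**Figure D5:**
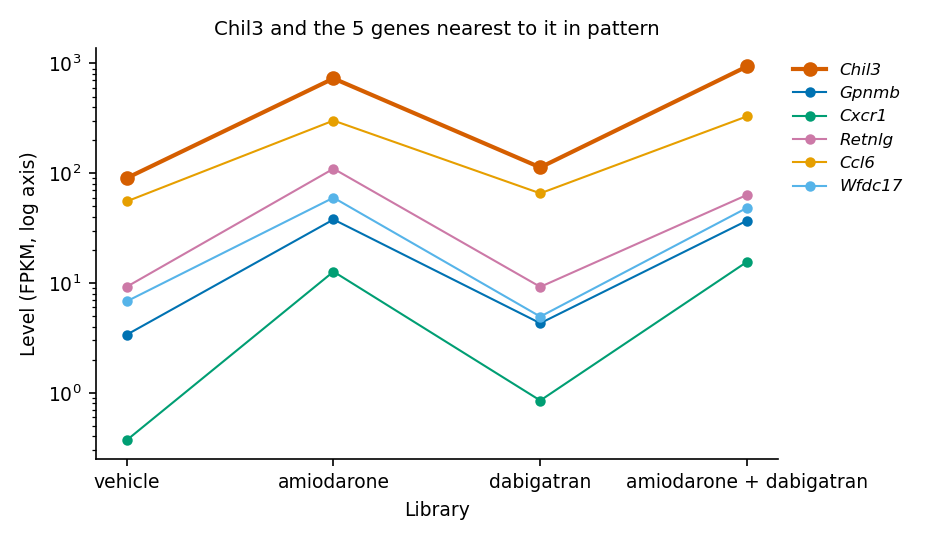
Level in FPKM (log axis) of Chil3 and of the 5 genes nearest to it, Gpnmb, Cxcr1, Retnlg, Ccl6 and Wfdc17, in the 4 libraries; lines join the values of a gene and stand for no time course. All 6 are higher in both libraries with amiodarone, and Retnlg goes from 110 to 63.5 FPKM between amiodarone and the combination while Chil3 goes from 731 to 940 FPKM.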

How the data were processed

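Poly(A)+ RNA of mouse lung was sequenced on DNBseq, with 1 library for each of 4 treatments. The authors aligned clean reads to the GRCm38.p6 genome (HISAT 2.0.4), aligned them to reference gene sequences (Bowtie2 2.2.5) and obtained expression values by RSEM 1.2.8. They deposited, for 17780 genes, an estimated count of reads and a normalized value per library, read here as FPKM. The unit is inferred, because reads per unit differed between amiodarone and vehicle by a factor of 1.07, as did total reads. Another 8 columns hold means of 2 libraries and were not used.

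Libraries were grouped by their treatment label. With 1 library per group no test was run. Ratios of FPKM carry exact Clopper-Pearson 95% intervals from reads rounded to whole numbers (SciPy 1.17.1, Python 3.11.15). Sequenced fragments are not independent molecules, so intervals cover counting error only, as does the limit of 3 reads that a count of 0 allows. Genes counted as changed at 2-fold on log2(FPKM + 1) with at least 1 FPKM in either library, a scale that understates the change of low genes. The procedure was tested on counts simulated from the vehicle library with counting error only. Such data hold no difference between animals, so that test does not bear on it. Gene identifiers were matched to RefSeq for GRCm38.p6 (17669 of 17780), promoters came from RefSeq, and transcripts and strands from GENCODE release M21 on the same build. Coding sequences were aligned with Biopython 1.88.

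The members, gene lists and alternatives were chosen with earlier results of these data known. Named are the members, genes of the pathway lists, up to 4 genes per marker list with the largest differences between amiodarone and vehicle, markers at 0 reads, and the genes nearest in pattern (5 for Chil3 and 3 for other members). Sftpc, Lyz2, Marco, Car4, Csf1r, Aif1, Ngp, Camp and Ltf were named after their values were seen. The alternatives were a pseudocount of 0.1, other filters on low values, rescaling by the median ratio, read counts scaled to library totals (CPM) and 1.5-fold.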

Additional observations from a re-analysis of the deposited data

Results flagged for a closer look

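Arg1 and Chil4 were flagged because the ratio for amiodarone lay on opposite sides of 1 without and with dabigatran, and the difference was not tested, since each group has 1 library. For Arg1 the ratio of amiodarone to vehicle was 0.654 and that of the combination to dabigatran was 2.97, from 15 to 47 reads per library. For Chil4 the same ratios were 20.2 and 0.702, from 1 to 22 reads per library.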

How the results depend on the processing

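Chil3, the only gene of the set that counted as changed, passed the fold in both pairs that differ by amiodarone under all 6 alternatives. Its direction did not reverse. The set was chosen on Chil3 and its ratios lay far past the fold, so this is a description only. After rescaling by the median ratio across genes the Chil3 ratios in those pairs were 8.38 and 8.36. With 0.1 as pseudocount, 1 of the 6 genes (Arg1) passed between the combination and amiodarone and 2 (Chil3 and Arg1) between the combination and dabigatran. At 1.5-fold the counts were 2 between amiodarone and vehicle (Chil1 and Chil3), 1 between the combination and amiodarone (Arg1) and 2 between the combination and dabigatran (Chil3 and Arg1). With CPM 2 genes passed between amiodarone and vehicle (Chil3 and Chil4). Over all genes, either direction, the main counts were 323 between amiodarone and vehicle, 21 between dabigatran and vehicle, 63 between the combination and amiodarone and 212 between the combination and dabigatran. At a pseudocount of 0.1 they were 588, 87, 157 and 364, and at 1.5-fold 1114, 128, 303 and 708 in that order. CPM gave 33 for dabigatran and 96 for the combination against amiodarone, and a minimum of 5 FPKM gave 8 for dabigatran. Among single ratios, rescaling moved Chil1 to 1.96 and 0.651 and Chil3 between the combination and amiodarone to 1.25, and the other 45 of 48 stayed within their counting intervals. No library could be left out, since each group has 1. No paired analysis was possible because each group holds 1 library. Depth limits Chil4 and Arg1, which had at most 47 reads.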
